A study of Mus musculus with 19 samples.

Results

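The surfactant protein genes *Sftpa1*, *Sftpb*, *Sftpc* and *Sftpd* and the surfactant-associated gene *Sfta2* were examined in neoplastic cells of mouse lung tumors. They were taken by gene symbol from the gene-level files, which list 53558 genes, and all 5 members passed the filter on low counts that left 13986 genes for testing. The mice of all groups carried the alleles R26LSL-tdTomato and H11LSL-Cas9 and a Cre-activated oncogene on a mixed C57BL/6J and 129 background. Tumors had been initiated by intratracheal delivery of a lentivirus that carried Cre and sgRNAs, and had grown for 17 weeks. Cre switches on the oncogene, the red reporter and Cas9 in each transduced cell, so all 3 groups share these alleles and differ in the guides. The sgInert vector (7 libraries) carried the non-targeting or inert guides sgNeo1, sgNT1 and sgNeo2. The sgCebpa/b/d vector (7 libraries) carried 3 guides against *Cebpa*, *Cebpb* and *Cebpd*, which encode C/EBP transcription factors, and the sgLkb1 vector (5 libraries) targeted *Stk11*, the gene of the kinase LKB1. Neoplastic cells had been sorted as DAPI-negative cells without CD45, CD31, F4/80 and Ter119. Because guides act in some cells and not in others, each library can hold edited and unedited cells.

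Surfactant is the lipid and protein film that lowers surface tension in the alveoli, and alveolar type II (AT2) cells make it. *Sftpb* and *Sftpc* encode small hydrophobic proteins (SP-B and SP-C) that work within the lipid film, and SP-C is the classical marker of AT2 cells. *Sftpa1* and *Sftpd* encode SP-A and SP-D, secreted lectins of the collectin family that bind microbes in the airspace. *Sfta2* encodes a small secreted protein found in the lung with surfactant. In adult lung, transcription of surfactant protein genes depends on factors such as NKX2-1, FOXA and C/EBP proteins.

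The annotated starts of 3 members were in the RefSeq promoter table for GRCm38.p6, which spans 250 bases before to 50 bases after each start. They are shown because C/EBP factors were targeted in 1 of the groups and such factors bind promoters. The windows are chr6:72304360-72304659 for *Sftpb*, chr14:41131538-41131837 for *Sftpa1* and chr17:35649458-35649757 for *Sfta2*, all on the plus strand. Capitals mark the letters searched on both strands, which were TTNNGCAA for C/EBP, CAAGTG and CTCAAG for NKX2-1, TGTTTNC for FOXA and TATAAA for a TATA box. No 2 of the marked stretches overlapped.
Sftpb: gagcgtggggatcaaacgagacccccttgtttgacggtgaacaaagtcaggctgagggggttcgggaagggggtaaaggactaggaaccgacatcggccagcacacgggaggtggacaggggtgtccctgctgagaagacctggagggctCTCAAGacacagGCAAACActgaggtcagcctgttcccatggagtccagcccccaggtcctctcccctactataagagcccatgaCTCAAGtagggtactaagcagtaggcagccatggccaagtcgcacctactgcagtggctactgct
Sftpa1: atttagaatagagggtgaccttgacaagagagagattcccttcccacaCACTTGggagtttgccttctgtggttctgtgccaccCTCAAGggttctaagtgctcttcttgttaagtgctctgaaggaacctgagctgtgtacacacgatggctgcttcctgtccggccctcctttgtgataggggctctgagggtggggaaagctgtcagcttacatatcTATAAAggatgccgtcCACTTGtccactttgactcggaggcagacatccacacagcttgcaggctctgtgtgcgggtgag
Sfta2: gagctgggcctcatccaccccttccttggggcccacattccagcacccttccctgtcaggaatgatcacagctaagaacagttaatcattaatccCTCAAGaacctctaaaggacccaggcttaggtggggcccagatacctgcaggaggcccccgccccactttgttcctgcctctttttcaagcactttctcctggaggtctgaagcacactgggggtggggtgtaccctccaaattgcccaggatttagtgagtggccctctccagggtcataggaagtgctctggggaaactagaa

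None of the 3 windows held the C/EBP letters, which 10.8% of the 32851 promoters in the table hold, and this says nothing of C/EBP binding there or elsewhere. CTCAAG stood in all 3 windows, at bases -100 and -15 from the start of *Sftpb*, -166 of *Sftpa1* and -155 of *Sfta2*. It is found in 15.9% of all promoters. *Sftpa1* also held 2 matches of CAAGTG on the reverse strand, starting at -202 and -14, against 13.6% of promoters with at least 1 match. The FOXA letters occurred in *Sftpb* alone, at -88 on the reverse strand, with 20.5% of all promoters holding them. The TATA box letters occurred at -30 in *Sftpa1* and in 13.6% of promoters. *Sftpc* and *Sftpd* are named only.

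In the mm10 genome (GRCm38, GENCODE annotation) *Sftpa1* (ENSMUSG00000021789.14) lies at chr14:41131782-41136452 on the plus strand, and *Sftpd* (ENSMUSG00000021795.10) at chr14:41172214-41185149 on the minus strand, 35761 bases away. *Sftpc* (ENSMUSG00000022097.4) lies further along the same chromosome, at chr14:70520949-70524081 on the minus strand. *Sftpb* (ENSMUSG00000056370.15) is at chr6:72304610-72314371 and *Sfta2* (ENSMUSG00000090509.2) at chr17:35601549-35650571, both on the plus strand. No other annotated gene overlaps the first 4. The span of *Sfta2* holds *Gm9573* and *Mucl3* on the other strand, and strand use in counting was not given. Its mean transcript length was estimated at 508.0 to 508.08 bases over the 19 libraries, and its shortest transcript has 508 bases.

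Libraries held 2760722 to 9944131 estimated counts (median 6028918), which include 54472 to 215393 for *Sftpa1* and 268 to 1284 for *Sfta2*. Labels gave an animal number beginning MT to 10 libraries and one beginning ZR to 4, and gave no number to 5. All 4 ZR libraries are sgInert. The 3 sgCebpa/b/d libraries with no number are male and the 4 MT ones female, so that sex and number series cannot be told apart in that group, and the MT libraries of each group come from 2 animals. The sgLkb1 libraries are all female. *Stk11* was lower in every sgLkb1 library (2.97 to 3.67 log2 CPM) than in every sgInert library (4.30 to 4.53). *Cebpa*, *Cebpb* and *Cebpd* were not lower in the libraries labelled sgCebpa/b/d, where *Cebpa* averaged 6.58 against 5.85 log2 CPM in sgInert. Small Cas9 deletions need not lower a transcript, and the transcript levels therefore do not check that label.

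The sorted cells carried the AT2 markers. *Sftpc* ranked between 4 and 10 among all genes of a library by TPM (abundance corrected for gene length, with the same total in each library), and the 8 AT2 genes listed apart from the members, such as *Abca3*, *Lamp3* and *Slc34a2*, were present in every group. Their summed TPM was 29200 to 42800 in sgInert, and it was lower in both other groups with no overlap, at 14700 to 21600 in sgLkb1 and 5050 to 16500 in sgCebpa/b/d. Such a sum weighs most on abundant genes, and *Lyz2* and *Cxcl15* had the highest means of the 8 in sgInert (13.97 and 13.96 log2 CPM). In sgLkb1 these 2, *Lamp3* and *Etv5* were lower, 4 of 8 beside 2.97% of all genes. *Abca3*, *Slc34a2*, *Napsa* and *Muc1* did not pass there. Markers of other cells had lower sums, of at most 67.2 TPM for 4 endothelial genes, 110.0 for 5 fibroblast genes and 911 for 4 club and airway genes. The highest were 1060 for 8 immune genes and 1690 for 7 genes of alveolar type I (AT1) cells, both in sgCebpa/b/d. Some of them moved with the groups, however, beside the surfactant changes given next. Of the 4 endothelial genes, 3 were higher in sgCebpa/b/d than in sgInert, namely *Pecam1*, the gene of the sorted-out CD31 (1.95, SE 0.535, adjusted p = 0.0203), *Cdh5* (2.21, SE 0.614, adjusted p = 0.0227) and *Kdr* (2.41, SE 0.734, adjusted p = 0.0389), and none passed in sgLkb1, where the same 3 had 1.70 to 2.32. Of the 5 fibroblast genes, *Dcn* was higher in both groups (2.88 in sgCebpa/b/d, adjusted p = 0.00129, and 2.84 in sgLkb1, adjusted p = 0.00412). The endothelial sum was 4.37 to 14.0 TPM in sgInert and 12.9 to 54.5 in sgLkb1, and the fibroblast sum 3.27 to 37.4 and 30.2 to 110.0. The part of these cells in the surfactant gene levels was not tested. The 8 immune genes summed to 5.06 to 20.5 TPM in the MT libraries, to 20.5 to 272 in the ZR libraries and to 205 to 1060 in the 5 libraries with no number.

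On the TPM scale the order of the 5 members was the same in all 19 libraries, and the ranges of neighbouring members did not overlap. *Sftpc* had 20131 to 41527 TPM, *Sftpa1* 5272 to 14311, *Sftpb* 2758 to 4879, *Sftpd* 901 to 1461 and *Sfta2* 362 to 652. Together they took 4.44% to 6.20% of TPM in sgInert. The share was 3.69% to 4.91% in sgLkb1 and 3.00% to 5.44% in sgCebpa/b/d. By rank, *Sftpa1* stood between 11 and 15, *Sftpb* between 16 and 22, *Sftpd* between 48 and 89, and *Sfta2* between 135 and 263 of the genes of a library.

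**Figure D1:**
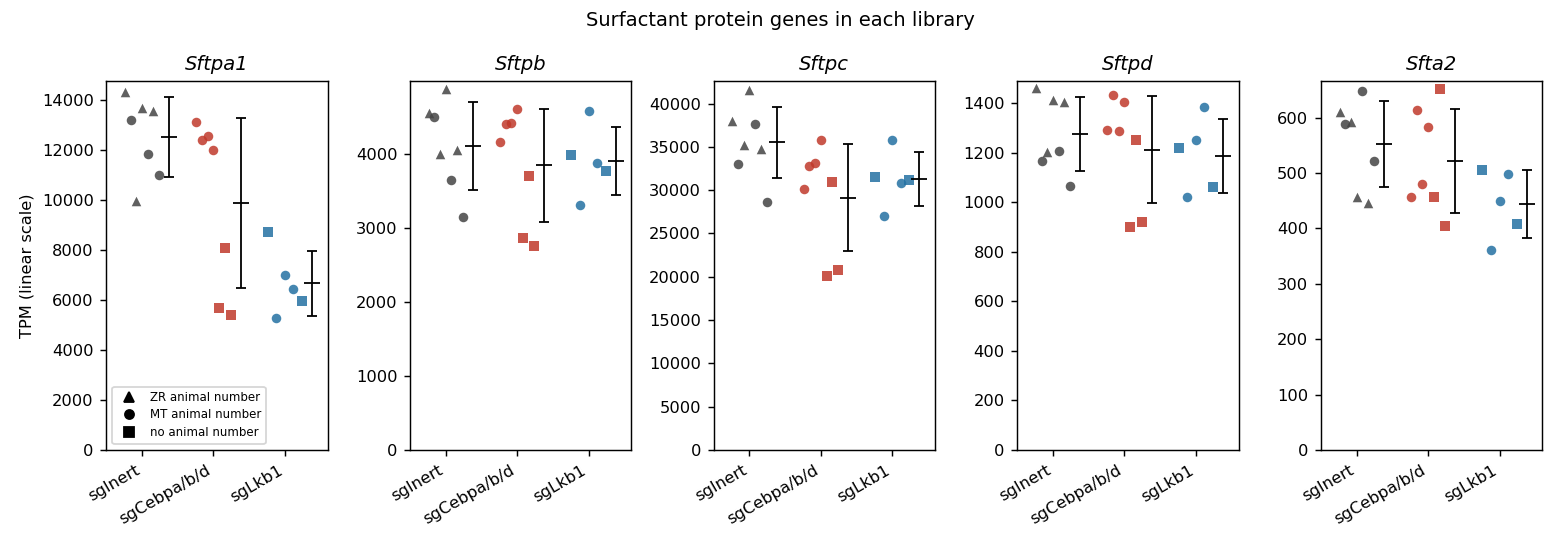
TPM of the 5 genes in each library (linear scale from 0), by guide group and with symbols for the animal number series; bars show mean ± SD over the 7, 7 and 5 libraries. The 5 sgLkb1 libraries and the 3 sgCebpa/b/d libraries with no number lie below all sgInert libraries for *Sftpa1*, while the 4 MT sgCebpa/b/d libraries lie among them.

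The first comparison asked how loss of LKB1 changed these genes. *Sftpa1*, *Sftpc*, *Sftpd* and *Sfta2* were lower in sgLkb1 than in sgInert tumors, and *Sftpb* did not pass the test without a covariate. At an adjusted p under 0.05 (edgeR quasi-likelihood test, Benjamini-Hochberg over all genes), 4 of 5 members were lower and none higher, beside 2.97% of all 13986 genes tested that were lower. The median log2 fold change was -0.39 over the members and -0.01 over all genes. The libraries are bulk samples, so fewer cells that express a gene and less of its RNA per cell cannot be told apart.

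*Sftpa1* showed the largest change of the 5. It had 8711, 5272, 7004, 6423 and 5966 TPM in sgLkb1 replicates 1 to 5, and 9980 to 14311 TPM (median 13189) in sgInert. Every sgLkb1 library lay below every sgInert library, as did 2.00% of all genes tested. In the fit on counts the log2 fold change was -1.08 (SE 0.212, adjusted p = 0.0031), or 0.473 times the sgInert level. Leaving out any 1 library gave -1.16 to -1.01, all past the threshold. With the number series as a covariate it was -0.84 with an adjusted p of 0.0515. That fit takes the difference between series as the same in every group. In the fit by series given below, libraries with no number differed from MT ones by -1.01 in sgCebpa/b/d and 0.23 in sgLkb1. There the sgLkb1 change was -1.16 among MT libraries, and -0.95 for libraries with no number against all sgInert libraries.

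*Sfta2* also fell in every sgLkb1 library below the sgInert range on the log2 CPM scale. Its levels were 6.59, 6.21, 6.49, 6.48 and 6.38 log2 CPM in sgLkb1 replicates 1 to 5, and 6.60 to 7.16 in sgInert, so the gap between the groups was narrow. The log2 fold change was -0.54 (SE 0.116, adjusted p = 0.00634), and any 1 library could be left out without losing the call. On the TPM scale, where the groups overlapped (362 to 506 in sgLkb1 and 447 to 649 in sgInert), limma gave -0.31 with an adjusted p of 0.193. On that scale the median of all genes was 0.18 higher in sgLkb1, so the change relative to that median was larger.

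The genes of the hydrophobic proteins follow. *Sftpc* had 31468, 26958, 35789, 30876 and 31224 TPM in sgLkb1 replicates 1 to 5 against 28638 to 41527 (median 35158) in sgInert. On the log2 CPM scale 4 of the 5 sgLkb1 libraries were below all sgInert libraries, and the log2 fold change was -0.39 (SE 0.108, adjusted p = 0.0324). *Sftpb* had 3986, 3314, 4583, 3875 and 3766 TPM in the same libraries against 3147 to 4879 in sgInert, with a log2 fold change of -0.29 (SE 0.11, adjusted p = 0.137). The 95% interval of that change was -0.51 to -0.07. All sgLkb1 libraries are female, and with sex as a covariate in edgeR *Sftpb* passed the threshold (-0.41, adjusted p = 0.0203). The sex term of that fit comes from the other groups alone, and in sgCebpa/b/d sex goes with number series. The fit therefore cannot separate sex from number series.

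*Sftpd*, the other lectin, had 1218, 1020, 1249, 1384 and 1059 TPM in sgLkb1 and 1067 to 1461 in sgInert. The groups overlapped, and the log2 fold change on counts was -0.33 (SE 0.0937, adjusted p = 0.0414). The calls for *Sftpc* and *Sftpd* were near the threshold. With counts summed per animal in edgeR both were lost (adjusted p = 0.0682 and 0.0999), while those of *Sftpa1* and *Sfta2* held (0.0131 and 0.0368). Leaving out 1 library at a time kept *Sftpc* past the threshold in 10 of 19 fits and *Sftpd* in 5 of 19. *Sftpd* lay between -0.36 and -0.28 throughout. The *Sftpc* call was lost without any of sgInert replicates 1, 3, 4, 5 and 6 or sgLkb1 replicates 1, 2, 4 and 5 (adjusted p 0.0515 to 0.0975). The *Sftpd* call held only without sgInert replicate 2, 5 or 7 or sgCebpa/b/d replicate 4 or 5, and the adjusted p reached 0.123 in the others. With the number series as a covariate both lost the call, *Sftpc* at -0.25 (adjusted p = 0.344) and *Sftpd* at -0.12 (adjusted p = 0.618). On the TPM scale they had -0.18 and -0.10, where the median of all genes was 0.18 higher in sgLkb1.

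The second comparison asked how the C/EBP guides changed the same genes. *Sftpc* was lower in the libraries labelled sgCebpa/b/d than in sgInert and the other 4 members did not pass the test. That is 1 of 5 members, beside 5.36% of all genes that were lower. The median log2 fold change was -0.11 over the members and 0.02 over all genes. *Sftpc* had 20131 to 35794 TPM (median 30922) in sgCebpa/b/d, and the log2 fold change was -0.31 (SE 0.098, adjusted p = 0.0458). Over the 19 fits that left out 1 library the adjusted p was 0.0288 to 0.0856. The call held in 5 of them, those without sgInert replicate 7, sgCebpa/b/d replicate 2, 3 or 4, or sgLkb1 replicate 3. The change was -0.17 (adjusted p = 0.537) with the number series as a covariate and -0.12 (adjusted p = 0.597) among MT libraries alone, and with counts summed per animal the adjusted p was 0.0575.

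*Sftpb* had 2758 to 4611 TPM (median 4165) in sgCebpa/b/d and a log2 fold change of -0.11 (SE 0.0996, adjusted p = 0.543). *Sftpd* had 901 to 1432 TPM (median 1287) and a log2 fold change of -0.09 (SE 0.085, adjusted p = 0.565). *Sfta2* had 404 to 652 TPM (median 481) and a log2 fold change of -0.10 (SE 0.104, adjusted p = 0.626). The 95% intervals of these 3 genes ran from -0.31 to 0.10.

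*Sftpa1* split the sgCebpa/b/d group by number series, and it was not alone in this. The summed TPM of the 8 AT2 genes was 13300 to 16500 in the 4 MT libraries and 5050 to 8010 in the 3 with no number, and that of the 17 genes of surfactant handling described further on was 9410 to 10400 and 4700 to 7020. The lists share *Abca3*, *Lamp3*, *Slc34a2* and *Napsa*, so their sums are not separate signs. For *Sftpa1*, the 4 MT libraries, replicates 1 to 4, had 13104, 12407, 12572 and 11994 TPM, inside the sgInert range. The 3 libraries with no number, replicates 5 to 7, had 5685, 8099 and 5386 TPM, below every sgInert library and inside the sgLkb1 range. On the log2 CPM scale replicate 6 lay just above the sgLkb1 range (13.705 against at most 13.69). Over all 7 libraries the log2 fold change from sgInert was -0.33 (SE 0.188, adjusted p = 0.303), with a SD of 0.571 log2 CPM in sgCebpa/b/d against 0.216 in sgInert and 0.247 in sgLkb1. With sex as a covariate it was -0.50 with an adjusted p of 0.0332. That fit gives both sexes the same effect, while the values by sex, given below, were -0.94 in males and -0.05 in females.

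The split was fitted with a separate level for each guide group and number series, an analysis chosen after the values were seen. The fit took each library as independent, although the MT libraries of each group come from 2 animals. Between the sgCebpa/b/d libraries with no number and with an MT number, *Sftpa1* differed by -1.01 on the log2 scale (SE 0.158, adjusted p = 0.000591). It was the only member called, 1 of 5, beside 3.88% of all genes that were lower. The same contrast inside sgLkb1 gave 0.23 (SE 0.183, adjusted p = 0.968), where 0.0358% of genes were lower. The libraries with no number in both groups were those with the higher immune marker sums. Such a sum weighs most on abundant genes, and *Chil3* had the highest mean of the immune genes in sgCebpa/b/d (4.03 log2 CPM, SD 5.44). *Cd68* averaged 3.00 there (SD 0.698). None of the 6 immune genes tested passed against sgInert in either group, and they were not compared singly between the series. Within sgCebpa/b/d the endothelial sums (4.35 to 16.1 TPM with an MT number and 47.9 to 67.2 with none), club and airway sums (22.9 to 72.1 and 96.8 to 317) and AT1 sums (884 to 1230 and 1370 to 1690) also separated these libraries. The part of these markers in the *Sftpa1* level was not tested.

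Among MT libraries alone, *Sftpa1* differed between sgCebpa/b/d and sgInert by 0.03 (SE 0.154, adjusted p = 0.952). Between sgLkb1 and sgInert it differed by -1.16 (SE 0.167, adjusted p = 0.000179), and *Sfta2* by -0.68 (SE 0.157, adjusted p = 0.0129), 2 of 5 members beside 2.17% of genes lower. The sgCebpa/b/d libraries with no number were lower than the sgInert group for *Sftpa1* (-0.99, SE 0.147, adjusted p = 6.75e-05) and for *Sftpc* (-0.47, SE 0.107, adjusted p = 0.00394), 2 of 5 members beside 8.54% of genes lower. The sgLkb1 libraries with no number were lower than the sgInert group for *Sftpa1* (-0.95, SE 0.172, adjusted p = 0.00155) and, just past the threshold, *Sftpd* (-0.35, SE 0.104, adjusted p = 0.0498), 2 of 5 members beside 2.19% of genes lower. No sgInert library lacks a number, so these last 2 contrasts cannot be made within a series.

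The split also follows sex. In sgInert, male libraries had 9980 to 14311 TPM of *Sftpa1* and female libraries 11845 to 13688, and these overlap. The log2 fold change of sgCebpa/b/d against sgInert was -0.94 (SE 0.147, adjusted p = 0.000608) in males and -0.05 (SE 0.143, adjusted p = 0.931) in females. The difference between the sexes was 0.89 (SE 0.204) with an adjusted p of 0.0971, so 0 of 5 members passed in edgeR, where 0.162% of genes did. At an unadjusted p under 0.05, 1 member passed, and DESeq2 called the same gene with an adjusted p of 0.0101. Without sgInert replicate 3, edgeR gave *Sftpa1* 0.97 with an adjusted p of 0.0474.

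**Figure D2:**
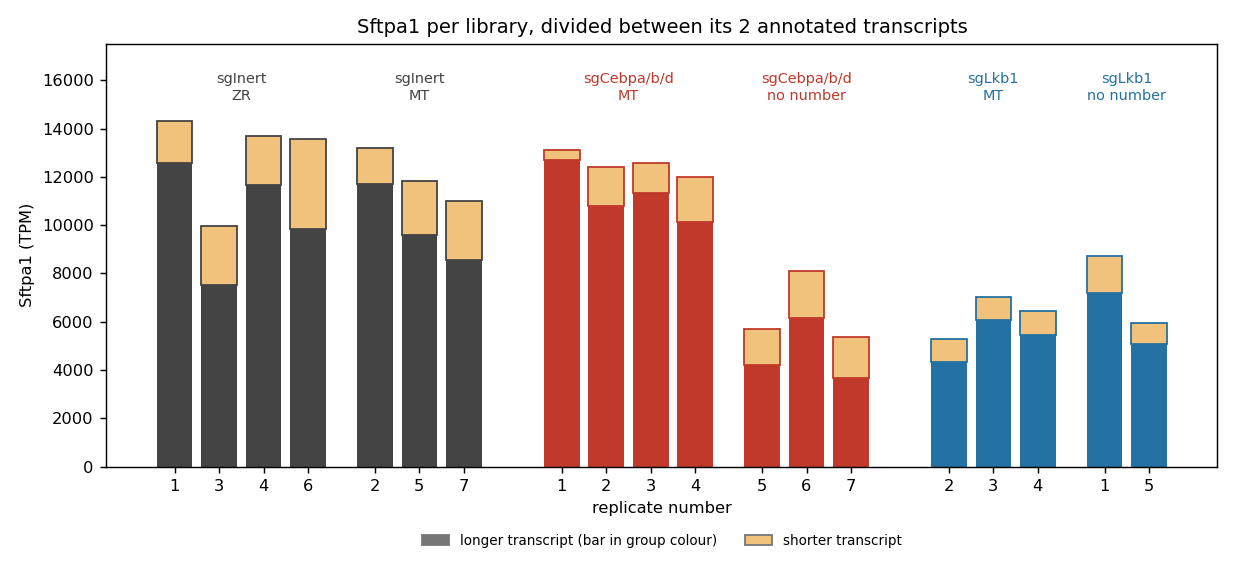
*Sftpa1* in TPM per library, by guide group and animal number series; each bar is divided between the longer and the shorter annotated transcript, as computed from the mean transcript length in the files. Total height is 11994 to 13104 TPM in the 4 MT sgCebpa/b/d libraries and 5386 to 8099 in the 3 with no number, and the longer transcript makes up most of each bar.

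*Sftpa1* has 2 annotated transcripts, of 851 and 2854 bases, of which the longer extends further at the 3′ end. The files give a mean transcript length per library, weighted by the estimated abundance of each, and the share of the longer transcript follows from it. That share was 72.4% to 88.7% in sgInert and 82.2% to 86.8% in sgLkb1. It was 84.5% to 96.9% in the 4 MT sgCebpa/b/d libraries and 68.1% to 76.2% in the 3 with no number, and these do not overlap. The longer transcript had 10138 to 12696 TPM in the former and 3668 to 6171 TPM in the latter, while the shorter had 409 to 1857 and 1489 to 1928 TPM. In sgLkb1 the shorter transcript had 875 to 1538 TPM against 1494 to 3746 in sgInert, so both transcripts were low there. These shares are model estimates from short reads. They were not tested, and the other 4 members had nearly constant lengths (for example 1459 to 1518 bases for *Sftpb*).

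The third comparison set the guide groups beside each other. *Sftpa1* and *Sfta2* were higher in the libraries labelled sgCebpa/b/d than in sgLkb1, which is 2 of 5 members beside 2.83% of all genes that were higher. Several libraries share an animal, and with counts summed per animal both calls were lost (*Sftpa1* 0.54, adjusted p = 0.233, and *Sfta2* 0.47, adjusted p = 0.0575). Libraries with no number were each counted as a separate animal there, since their animals are not known. *Sftpa1* differed by 0.75 (SE 0.21, adjusted p = 0.0361), a ratio of 1.68. Its call was lost without any 1 of sgCebpa/b/d replicates 1 to 4 or sgLkb1 replicates 2 to 5 (adjusted p 0.0633 to 0.0994). The difference was 1.2 (SE 0.159, adjusted p = 8.83e-05) among MT libraries, where 2.42% of genes were higher, and -0.05 (SE 0.184, adjusted p = 0.927) among libraries with no number. Those values differed from each other by 1.24 (SE 0.239, adjusted p = 0.0368), beside 0.0930% of genes that differed in that direction. All 3 of the latter sgCebpa/b/d libraries are male and all sgLkb1 libraries female.

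*Sfta2* was higher by 0.44 (SE 0.115, adjusted p = 0.0244). It had 6.60 to 7.14 log2 CPM in sgCebpa/b/d, above all 5 sgLkb1 libraries, as did 2.21% of all genes tested. Its difference was 0.43 among MT libraries and 0.44 among libraries with no number, with adjusted p values of 0.114 and 0.184. The call over all libraries was lost without sgCebpa/b/d replicate 2 or 6 or sgLkb1 replicate 2, 4 or 5 (adjusted p 0.0519 to 0.0794). *Sftpb* (0.18, SE 0.109, adjusted p = 0.424), *Sftpc* (0.08, SE 0.107, adjusted p = 0.754) and *Sftpd* (0.23, SE 0.0935, adjusted p = 0.173) did not pass. The 95% interval for *Sftpc* was -0.13 to 0.29.

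**Figure D3:**
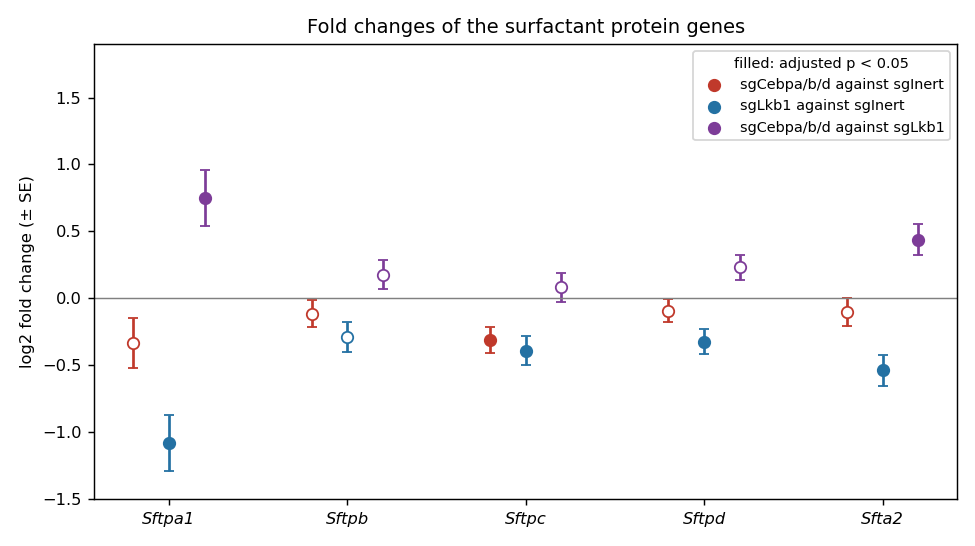
Log2 fold changes (± SE, edgeR) of the 5 genes in the 3 comparisons, with filled points for an adjusted p under 0.05. *Sftpa1* shows the largest changes, -1.08 in sgLkb1 against sgInert and 0.75 in sgCebpa/b/d against sgLkb1, while *Sftpb* has no filled point.

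Across the 19 libraries the 4 classical surfactant protein genes varied together on the log2 CPM scale. Pearson's r lay between 0.768 and 0.838 for their 6 pairs, and between 0.62 and 0.839 after each group's mean was taken out. *Sfta2* stood apart. Its r with the other members was 0.417 to 0.538, and -0.10 to 0.08 within groups. The points share library depth and RNA quality, and number series and sex were not taken out, so these values are a description. In sgCebpa/b/d, libraries with no number differed from MT ones by -1.01 (*Sftpa1*), -0.31 (*Sftpb*), -0.28 (*Sftpc*), -0.21 (*Sftpd*) and 0.11 (*Sfta2*), and only *Sftpa1* passed.

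Over the same libraries, the genes most like the mean of the members were *Dpp4* (r = 0.892), which encodes a cell surface dipeptidyl peptidase, *Rdx* (0.862), *Cd74* (0.861), the invariant chain of MHC class II, *Pof1b* (0.857) and *Pla2g1b* (0.855), which encodes a secreted phospholipase A2. For single members these were *Elovl7*, a fatty acid elongase gene, and *Pla2g1b* for *Sftpa1* (0.939 and 0.921), *Gng12* and *Rtn3* for *Sftpb* (0.865 and 0.857), *Trap1* and *Slc16a7* for *Sftpc* (0.911 and 0.889), *Synrg* and *Tvp23b* for *Sftpd* (0.869 and 0.846), and *Fam221b* for *Sfta2* (0.935). With each group's mean taken out, r with the mean of the members fell to between 0.569 (*Pof1b*) and 0.76 (*Rdx*) for the genes named first. The log2 fold change in sgLkb1 against sgInert was -1.98 for *Pla2g1b* and -1.14 for *Elovl7*. These genes were chosen by r over the same libraries, group differences included. Such changes therefore follow in part from the choice and are no separate support.

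Surfactant also needs lipid synthesis, the lamellar bodies that store it and proteases that mature SP-B and SP-C. Of 17 such genes, 16 were tested. In sgCebpa/b/d against sgInert, 7 were lower and none higher, with a median log2 fold change of -0.44, beside 5.36% of all genes lower and 4.72% higher. Within sgCebpa/b/d the summed level of the list differed by number series without overlap, as given above. *Scd1*, a fatty acid desaturase, differed by -1.68 (SE 0.168, adjusted p = 7.60e-07), *Abca3*, the lipid transporter of lamellar bodies, by -1.33 (SE 0.133, adjusted p = 7.60e-07) and *Fasn*, fatty acid synthase, by -0.93 (SE 0.134, adjusted p = 6.99e-05). The others that fell were *Lamp3*, *Lpcat1*, *Atp8a1* and *Slc34a2*, by changes between -1.02 and -0.45.

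In sgLkb1 against sgInert, 3 of the 16 were lower and none higher, with a median of -0.22, beside 2.97% of all genes lower and 2.81% higher. They were *Lpcat1*, which makes dipalmitoyl phosphatidylcholine (-0.56, SE 0.102, adjusted p = 0.00164), *Pcyt1a*, which controls phosphatidylcholine synthesis (-0.85, SE 0.209, adjusted p = 0.0177), and *Lamp3* (-0.76, SE 0.204, adjusted p = 0.0287). *Scd1* had 0.53 and *Fasn* 0.06, with adjusted p values of 0.0916 and 0.887. Between sgCebpa/b/d and sgLkb1, 3 of 16 were lower and none higher (median -0.15), beside 3.12% of all genes lower and 2.83% higher, namely *Scd1* (-2.21, adjusted p = 1.37e-07), *Fasn* (-0.99, adjusted p = 0.000131) and *Abca3* (-0.87, adjusted p = 0.000483).

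**Figure D4:**
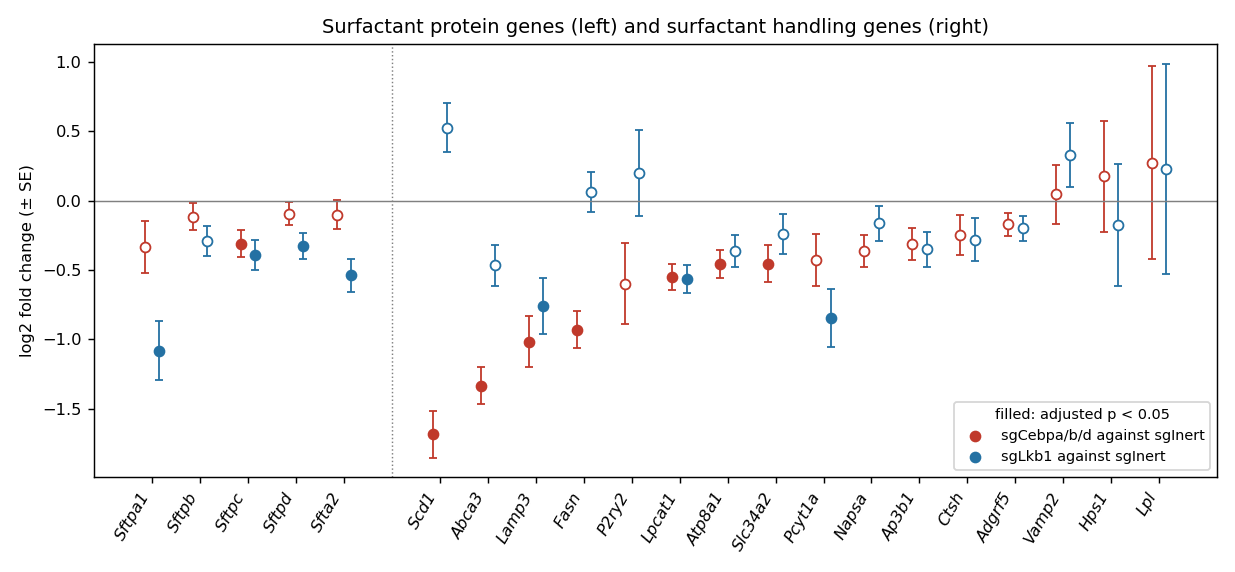
Log2 fold changes (± SE, edgeR) from sgInert of the 5 surfactant protein genes (left of the dotted line) and of 16 genes for surfactant lipids, lamellar bodies and processing (right), with filled points for an adjusted p under 0.05. *Scd1*, *Abca3* and *Fasn* lie at -1.68, -1.33 and -0.93 in sgCebpa/b/d, below every surfactant protein gene in that comparison.

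Of 16 transcription regulators linked to surfactant genes or alveolar identity, 2 were lower and 2 higher among the libraries labelled sgCebpa/b/d relative to sgInert, beside 5.36% and 4.72% of all genes, with a median log2 fold change of 0.18. *Hopx*, a gene of alveolar type I cells, rose by 1.86 (SE 0.281, adjusted p = 0.000122), *Cebpa* rose by 0.73 (SE 0.142, adjusted p = 0.00148), and *Etv5*, which maintains AT2 cells, fell by 1.15 (log2 fold change -1.15, SE 0.179, adjusted p = 0.000162). In sgLkb1, 3 were lower and none higher (median -0.04), beside 2.97% and 2.81% of all genes, namely *Thrb*, a thyroid hormone receptor gene (-0.96, adjusted p = 0.00027), *Id2* (-1.48, adjusted p = 0.00164) and *Etv5* (-0.68, adjusted p = 0.0423). *Nkx2-1* had 0.23 in sgCebpa/b/d and -0.01 in sgLkb1, with adjusted p values of 0.218 and 0.97. Between sgCebpa/b/d and sgLkb1, 1 was lower and 3 higher (median 0.20), beside 3.12% and 2.83% of all genes, the latter being *Cebpa* (1.15, adjusted p = 7.17e-05), *Thrb* (0.81, adjusted p = 0.000928) and *Nfia* (0.33, adjusted p = 0.019).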

How the data were processed

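The members and lists were chosen with earlier results of these data known. The authors made libraries of sorted cells with the Trio RNA-Seq kit, aligned paired reads to mm10 with STAR 2.6.1d and quantified genes with RSEM 1.2.30 (versions per the submitters' processing notes), and the use of strand is not given in the sources used here. The expected counts that the authors deposited are estimates per gene that need not be whole, and their deposited TPM values correct these estimates for length. The authors also deposited tables of normalized values and of their own DESeq2 fold changes and p-values, which were not used. Expected counts were rounded, filtered with filterByExpr, scaled by TMM and fitted in 1 quasi-likelihood model of 19 libraries (edgeR 4.0.16), with Benjamini-Hochberg adjustment over 13986 genes. Log2 CPM used a prior count of 2. Calls needed an adjusted p under 0.05. Alternatives used limma 3.58.1 on log2(TPM + 1) and DESeq2 1.42.0. The 5 members were named in full. Of the surfactant and regulator lists, the 3 genes with the smallest p per comparison were named, and further genes were named after their values were seen. Genes most like the members had the highest Pearson's r among genes above an average of 2 log2 CPM, and 1 gene that this rule names is not reported here. Several libraries of a group come from 1 animal, so p-values measure the spread between libraries, which may be technical. Where counts were summed per animal, each library with no number was kept as a separate animal, which may not hold. No 2 libraries of a group agreed within counting noise. The scripts were tested on simulated data.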

Additional observations from a re-analysis of the deposited data

Results flagged for a closer look

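*Sftpa1* stood out for a difference between the animal number series. Its sgCebpa/b/d minus sgLkb1 log2 difference was larger by 1.24 (SE 0.239, adjusted p = 0.0368) among libraries with an MT number than among those with no number, in an edgeR fit chosen after the values were seen. It was higher in 4 of 4 MT sgCebpa/b/d libraries than in all sgLkb1 libraries. On the log2 CPM scale replicate 6, with no number, also lay just above them (13.705 against at most 13.69). The 4 MT libraries come from 2 animals, and most of them from 1, so they are not independent animals. Sex goes with the number series in sgCebpa/b/d, and the parts of sex, number series and the immune marker sum cannot be told apart. No library stood far from its group in any of the 33 sets of libraries checked for that, in which chance flags about 1 in 20.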

How the results depend on the processing

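Members called numbered 1 in sgCebpa/b/d against sgInert, 4 in sgLkb1 against sgInert and 2 in sgCebpa/b/d against sgLkb1. In the same order they numbered 0, 2 and 1 with gene lengths as offsets, 0, 1 and 0 with limma on log2(TPM + 1) or log2(TPM + 0.1), 0, 2 and 1 with no filter on low counts, 2, 5 and 2 with sex as a covariate, 0, 1 and 2 with number series as a covariate, 0, 2 and 1 with MT libraries only, 0, 3 and 1 without the libraries with no number, 0, 2 and 0 with counts summed per animal, 0, 3 and 1 with only the 2 groups compared, and 0, 1 and 0 with an absolute log2 fold change above 1 in addition. RLE size factors, library sizes without the 5 genes and DESeq2 left the numbers as they were. The sex covariate rests on the other groups, since no sgLkb1 library is male, and it is mixed with number series in sgCebpa/b/d. The series covariate takes the difference between series as the same in every group. In the limma fits on log2(TPM + 1) and log2(TPM + 0.1), the median of all genes lay at 0.18 and 0.21 in sgLkb1 against sgInert. Leaving out 1 library at a time gave 0 to 1, 2 to 4 and 0 to 2 members. For the difference by sex it gave 0 to 1 member, against 0, and DESeq2 and the fit without a filter gave 1 each. The replicate block gave 1, 4 and 1. The labels' replicate numbers do not pair the libraries, since deviations of same-numbered libraries had correlations of -0.15 to 0.23 (median 0.02) in 17 pairs and exceeded 0.1 in 2, so this paired fit was run for completeness. The log2 difference turned sign for *Sftpb* (-0.0417) and *Sftpc* (-0.13) in sgCebpa/b/d against sgLkb1 with both limma fits, where the median of all genes lay at -0.16 and -0.18. In sgCebpa/b/d against sgInert it turned sign for *Sftpb* (0.0478) and *Sftpd* (0.11) with the series covariate, for *Sftpa1* (0.0226), *Sftpb* (0.10) and *Sftpd* (0.13) with MT libraries only, and for *Sftpa1* (0.0198) and *Sftpb* (0.0132) without the libraries with no number. For the difference by sex it turned sign for *Sfta2* (0.0085) without sgCebpa/b/d replicate 6, in a range of -0.26 to 0.0085. None of these reversed values passed the test. *Sftpa1* in sgLkb1 passed in 13 of 14 alternatives (adjusted p 1.4e-05 to 0.0515) and *Sfta2* in 12 of 14 (0.000436 to 0.195). Apart from those whose construction explains them (fewer samples, a stricter threshold), the cause was not tested. Counting error is small beside the spread between libraries, and the number of animals limits the precision.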

Other observations

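The make-up of the surfactant protein transcripts also differed between libraries. *Sftpc* made up 62.9% to 69.0% of the TPM of the 5 members in sgInert and 68.6% to 73.6% in sgLkb1, with 61.3% to 69.3% in the libraries labelled sgCebpa/b/d. *Sftpa1* made up 19.6% to 25.2% in sgInert and 14.1% to 18.98% in sgLkb1, which do not overlap. It made up 22.1% to 26.7% in the 4 MT sgCebpa/b/d libraries and 17.8% to 18.9% in the 3 with no number. *Sftpb* made up 6.62% to 8.57% in sgInert and 8.69% to 9.34% in sgLkb1, although its own log2 fold change on counts was -0.29. These shares add to a fixed total and were not tested.

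Of the AT2 genes listed apart from the members, *Lyz2*, the lysozyme gene, had a log2 fold change from sgInert of -3.52 in sgCebpa/b/d and -1.94 in sgLkb1 (adjusted p = 2.51e-07 and 0.00103, edgeR), and *Cxcl15*, which encodes the lung chemokine lungkine, had -1.48 and -1.28 (adjusted p = 0.000242 and 0.00485). These genes were named after their values were seen. Of the 8 AT2 genes, 6 were lower in sgCebpa/b/d and 4 in sgLkb1, with medians of -1.08 and -0.57, beside 5.36% and 2.97% of all genes that were lower. Of 7 AT1 genes, 5 were higher in sgCebpa/b/d (median 0.77) and none passed in sgLkb1 (median 0.27), beside 4.72% and 2.81% of all genes that were higher. Within sgCebpa/b/d the summed TPM of both lists differed by number series without overlap, at 13300 to 16500 (MT) and 5050 to 8010 (no number) for AT2 genes and at 884 to 1230 and 1370 to 1690 for AT1 genes. RSEM divides reads between *Lyz2* and its near-identical neighbor *Lyz1* by a model, so the value of *Lyz2* is uncertain to that extent.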
